A study of Mus musculus with 61 samples.

Results

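Immediate early genes are transcribed within minutes of a stimulus without new protein synthesis, and in neurons they are commonly read as a sign of recent synaptic activity. Calcium entry and kinase cascades act on factors that already sit on their promoters, mainly CREB at cAMP response elements and SRF with its partners at serum response elements, and the mRNA is short-lived. Most of their products are transcription factors, while others act at synapses or switch kinase signals off. A group of 9 such genes was followed through whole mouse brains cut into fractions: Fos, Fosb and Junb, which encode subunits of the AP-1 transcription factor; Egr1 and Egr2, zinc finger transcription factors; Nr4a1, an orphan nuclear receptor; Npas4, a transcription factor that responds to calcium in neurons; Arc, a cytoskeletal protein of dendrites that acts in AMPA receptor traffic; and Dusp1, a phosphatase that inactivates MAP kinases. They are 9 of 16358 genes that the array names by a RefSeq accession, and each was read from 1 probe, the one with the highest mean signal where a gene has several. Of the 9, Junb alone has another probe.

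The 6 animals were male C57BL/6J mice, 8 weeks of age, whose frozen brains were cut into fractions of 200 sections of 5 µm, so that 1 fraction is a slab 1 mm thick. The mice had been perfused with an RNA preservative under anesthesia, and the labels and methods name no stimulus, treatment or genotype other than the strain. Each brain gave 1 series: S (9 fractions) and So (10) were cut sagittally from left to right, C (13) and Co (16) coronally from posterior to anterior, and H (6) and Ho (7) horizontally from dorsal to ventral, the planes of So, Co and Ho being slightly oblique. RNA of each of the 61 fractions was hybridized to its own single-color array. A fraction holds every cell type of its slab, so that fewer cells of a type and less RNA per cell cannot be told apart.

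The level of a gene is the log2 intensity of its probe minus the 75th percentile of the array. Every value below is this level minus the mean of the same gene over its series (the centered level), so that differences between the mice and between the planes do not enter, and levels of different genes are not compared. All 9 genes were well above background in 61 of 61 fractions and none was saturated. On the arrays, which lay on 16 slides and were scanned on 5 days, the 75th percentile was between 737 and 1919 intensity units. Up to 4 neighboring fractions lay on 1 slide, and S1 and C13 were scanned on another day than the rest of their series. Precision is limited by the number of arrays, which is 1 per fraction. In the coronal series, area markers lay in the order of the stated cutting direction. A list of 5 olfactory bulb genes was highest in C13 (5.07) and Co15 (4.40), and a list of 5 cerebellar genes in C3 (3.69) and Co4 (3.88). The lists were chosen with earlier results of these data known, so that this is a description and not an independent check.

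Promoter sequence (RefSeq, build GRCm38.p6) was at hand for 7 of the 9 genes, all but Egr1 and Arc. The window from 250 bases before to 50 bases after the start of transcription holds the core of a cAMP response element, TGACG on either strand, in 7 of 7 genes, for Egr2 at 3 of its 5 starts. The same core is found in 20.81% of 32851 mouse promoter windows of this length. The palindrome TGACGTCA, which contains the core on both strands, is found only in Dusp1 (1.79% of windows), a CArG box, the serum response element motif, only in Egr2, at 4 of 5 starts (1.63%), and the EGR site GCGNGGGCG in Nr4a1 and Fosb (5.55%). The AP-1 site TGANTCA is in none of the 7 (7.81%). These are matches of letters and not measured binding sites, and sequence outside the window was not searched. The 200 bases before the start are shown for a pair of genes that were higher in the rostral than in both other coronal zones (Fosb, Nr4a1) and for the pair whose layout differed from theirs (Fos, Dusp1), written 5′ to 3′ on the strand of the gene, with the core, or CGTCA where it lies on the other strand, in capitals. Fosb lies at chr7:19310046-19310245 (minus strand), Nr4a1 at chr15:101266646-101266845 (plus), Fos at chr12:85473690-85473889 (plus) and Dusp1 at chr17:26508473-26508672 (minus).
Fosb: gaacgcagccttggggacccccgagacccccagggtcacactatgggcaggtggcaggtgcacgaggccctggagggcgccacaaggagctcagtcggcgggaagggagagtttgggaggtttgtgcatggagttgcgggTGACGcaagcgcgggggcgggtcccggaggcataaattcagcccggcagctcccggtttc
Nr4a1: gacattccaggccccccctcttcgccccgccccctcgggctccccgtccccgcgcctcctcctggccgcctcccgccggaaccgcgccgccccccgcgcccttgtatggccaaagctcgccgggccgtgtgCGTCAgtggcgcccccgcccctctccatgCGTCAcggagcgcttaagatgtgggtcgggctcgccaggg
Fos: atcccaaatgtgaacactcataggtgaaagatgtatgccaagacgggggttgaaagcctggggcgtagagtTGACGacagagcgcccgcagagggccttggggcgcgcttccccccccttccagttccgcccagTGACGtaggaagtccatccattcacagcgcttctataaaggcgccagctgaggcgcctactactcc
Dusp1: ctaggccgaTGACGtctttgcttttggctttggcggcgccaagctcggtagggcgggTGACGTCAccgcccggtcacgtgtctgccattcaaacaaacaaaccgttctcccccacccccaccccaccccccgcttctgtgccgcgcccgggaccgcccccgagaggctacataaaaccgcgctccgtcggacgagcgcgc

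Along the coronal series, 7 of the 9 genes (Egr1, Junb, Arc, Nr4a1, Fosb, Npas4 and Egr2) were low in all posterior fractions and stood at a higher level from the fifth pair of fractions onward, in both mice. Fos rose less, without a step at that place in Co, and Dusp1 showed no such step. Fractions of the 2 coronal mice were matched in 13 pairs (c1 to c13) as the study's methods give them, and the 28 pairs of all planes served as replicates. The pairs had been chosen as the fractions of 2 mice whose intensities correlated best over all probes, so that the partners resemble each other by construction and the p-values below are too small to an unknown extent.

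Egr2 had the widest layout. In C its centered level was −3.24, −2.97, −4.72 and −2.55 in C1 to C4, then 1.68, 2.02, 1.29, 0.66 and 1.57 in C5 to C9, and 1.39, 1.27, 1.79 and 1.81 in C10 to C13. In Co it was −2.46, −3.66, −4.74, −5.67 and −3.83 in Co1 to Co5 and lay between 1.27 and 2.25 in Co6 to Co16. The posterior fractions of both mice lay below every fraction anterior to them, and the lowest value was in pair c3 of both, the pair in which the cerebellar list was highest. The mean of the rostral pairs (c10 to c13) exceeded that of the caudal pairs (c1 to c4) by 5.73 ± 0.24 on the log2 scale (SE, adjusted p = 1.72e-17, limma's moderated test with Benjamini-Hochberg adjustment over 35984 probes). The corresponding ratio was 30.6-fold in C and 92.3-fold in Co.

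Npas4 was −3.91, −2.46, −2.42 and −1.94 in C1 to C4 and reached 1.22 in C5 and 2.57 in C13, its highest fraction. In Co it was −2.11, −1.95, −2.12, −1.66 and −1.13 in Co1 to Co5, 0.32 in Co6 and 1.17 in Co15. The zones did not overlap in either mouse, and rostral exceeded caudal by 3.47 ± 0.25 (adjusted p = 1.23e-12). Fosb was −1.53, −1.92, −1.95 and −1.77 in C1 to C4, rose to 0.69 in C5, and peaked at 1.91 in C12. In Co it lay between −2.39 and −1.79 in Co1 to Co5 and peaked at 2.06 in Co14, the partner of C12. Its difference between the rostral and caudal zones was 3.25 ± 0.12 (adjusted p = 2.09e-18). Nr4a1 was at −2.21 in C1 and −1.11 in C4 and at −2.37 in Co1 and −1.12 in Co5, and its highest values were 1.44 in C13 and 1.36 in Co14. Rostral exceeded caudal by 2.60 ± 0.11 for this gene (adjusted p = 2.28e-17).

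Arc, Egr1 and Junb were also low caudally. Arc lay between −1.89 and −1.76 in C1 to C4 and between 0.47 and 1.31 in C5 to C13, and in Co it lay between −2.16 and −1.50 in Co1 to Co5 and between −0.01 and 1.36 anterior to them. The zones did not overlap in either mouse for these 3 genes. The rostral zone was above the caudal zone by 2.83 ± 0.19 for Arc, 2.81 ± 0.17 for Egr1 and 2.63 ± 0.15 for Junb. The other probe of Junb gave 2.82 for the same contrast.

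Fos followed another course. It was −1.16, −0.49, −0.56 and −0.16 in C1 to C4, 0.43 in C5, near or below 0 from C7 (0.04) to C10 (−0.32), and 1.24 and 0.89 in C12 and C13. In Co it was −1.86 in Co1 and 0.35 in Co5 and then stayed between −0.06 and 0.62. The caudal and rostral zones overlapped in both mice, and the difference was 0.76 ± 0.13 (adjusted p = 6.78e-06), made up of 1.08 in C and 0.45 in Co. When the slide entered the fit as a fixed term it was 0.20 (adjusted p = 0.817).

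Dusp1 was lowest at the posterior end, at −0.75 in C1 and −1.07 in Co1, and highest in C4 (0.52) and Co5 (0.38), fractions in which 7 of the other genes were still low. Anterior to these fractions it lay between −0.28 and 0.39 in C and between −0.28 and 0.33 in Co. Its zones overlapped, and rostral minus caudal was −0.09 ± 0.10 (adjusted p = 0.432), or 0.05 when arrays were scaled to their median. A list of blood cell genes was at 1.63 in C1 and 1.57 in Co1, the highest values of those series, and its part in the level of Dusp1 at the posterior end was not tested.

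**Figure D1:**
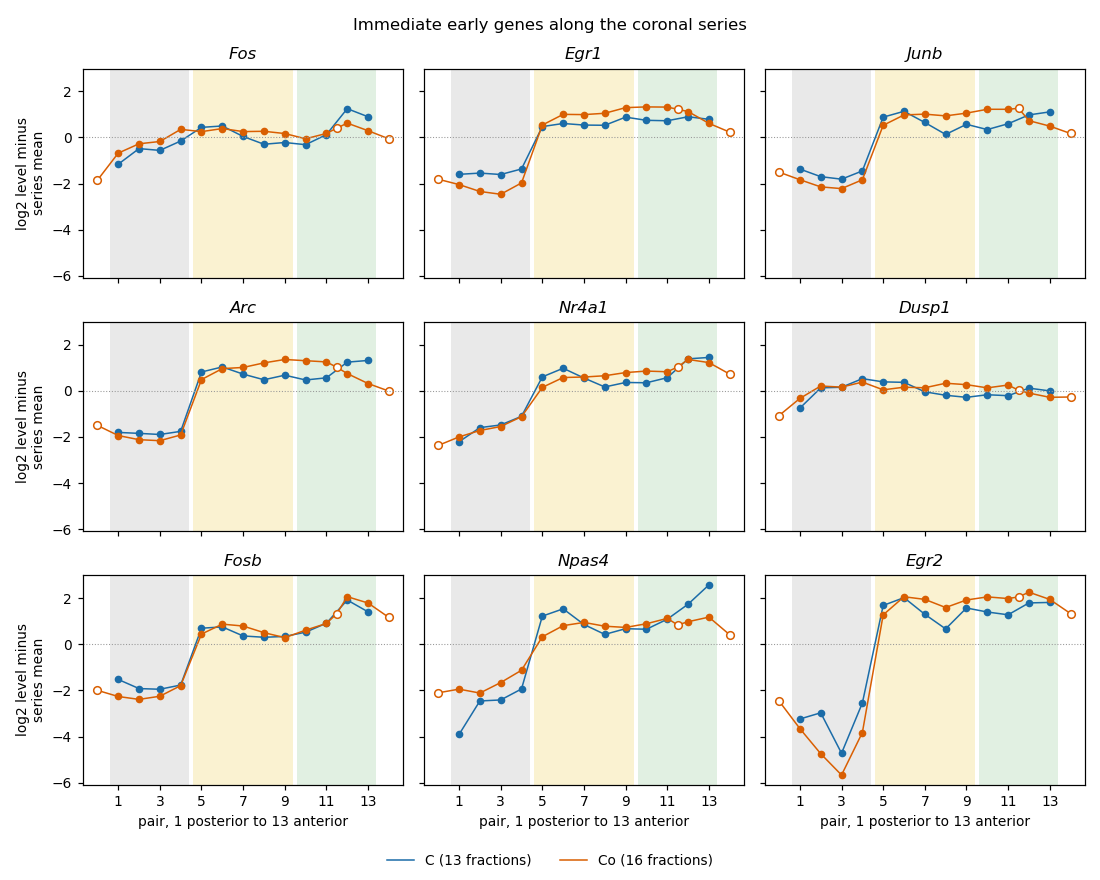
Centered log2 level (vertical axis, log2 units) of each gene against the pair of fractions (horizontal axis, 1 posterior to 13 anterior) in the coronal mice C (blue) and Co (orange). Shading marks the caudal (gray), middle (yellow) and rostral (green) zones, and open circles are Co fractions without a partner, placed by their order. Of the 9 genes, 7 step up between pairs 4 and 5 in both mice. Fos rises there in C (0.59) but not in Co (−0.10), and Dusp1 has no such step and is lowest in C1 and Co1.

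Over all genes tested, 24.6% of probes were higher in the rostral than in the caudal zone and 34.8% were lower, and 8 of the 9 members were higher and 0 lower. The middle zone (c5 to c9) gave a like picture, with 8 members higher than the caudal zone, beside 23.7% of all probes (37.9% were lower), by 0.57 (Fos) to 5.52 (Egr2). Among the probes called, 41.4% were higher in the rostral zone and 38.5% in the middle zone, and these shares became 57.7% and 50.5% when arrays were scaled to their median, which moved the median of all probes for rostral minus caudal from −0.11 to 0.04. The median over the members was 2.81, against −0.11 over all probes. In the test of any variation along the coronal fractions all 9 genes passed, which 68.5% of all probes also did, and over the 3 planes together all 9 passed, beside 63.9% of all probes. Dusp1 (adjusted p = 0.0182) no longer passed this test when either C1 or C4 was left out.

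The step itself lay between C4 and C5 and between Co5 and Co6. These fractions were picked after their values were seen, so that the size of the step is a description. In Co, both fractions lay on 1 slide, and the difference was 5.10 for Egr2, 2.51 for Egr1, 2.40 for Arc, 2.36 for Junb, 2.23 for Fosb, 1.45 for Npas4 and 1.27 for Nr4a1. In C, where the slide changes between C4 and C5, the 7 genes rose by 1.71 (Nr4a1) to 4.23 (Egr2). Fos differed by 0.59 in C and −0.10 in Co, and Dusp1 by −0.14 and −0.33. With slides as a fixed term, 7 members were still higher in the rostral and the middle zone than in the caudal zone. Of all probes called in that fit, 46.1% were higher in the rostral and 50.1% in the middle zone.

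The markers of areas moved at the same place. The list of 8 cerebral cortex genes went from −1.65 to 0.51 between C4 and C5 and from −1.43 to 0.16 between Co5 and Co6, and 7 of its 8 genes were higher in the rostral than the caudal zone. Over the caudal zone the mean of this list lay between −1.97 and −1.65 in C and between −1.74 and −1.43 in Co. Of 4 excitatory neuron genes, 3 were higher rostrally and 1 was lower, with a list mean between −1.93 and −1.13 in C1 to C4 and between −0.72 and 0.89 in C10 to C13. The cerebellar list went from 3.46 to 0.77 between C4 and C5, and all 5 of its tested genes were lower rostrally, as were 6 of 6 genes of the pons and medulla and 5 of 5 oligodendrocyte genes. The part of the makeup of the fractions in the levels of the members was not tested.

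**Figure D2:**
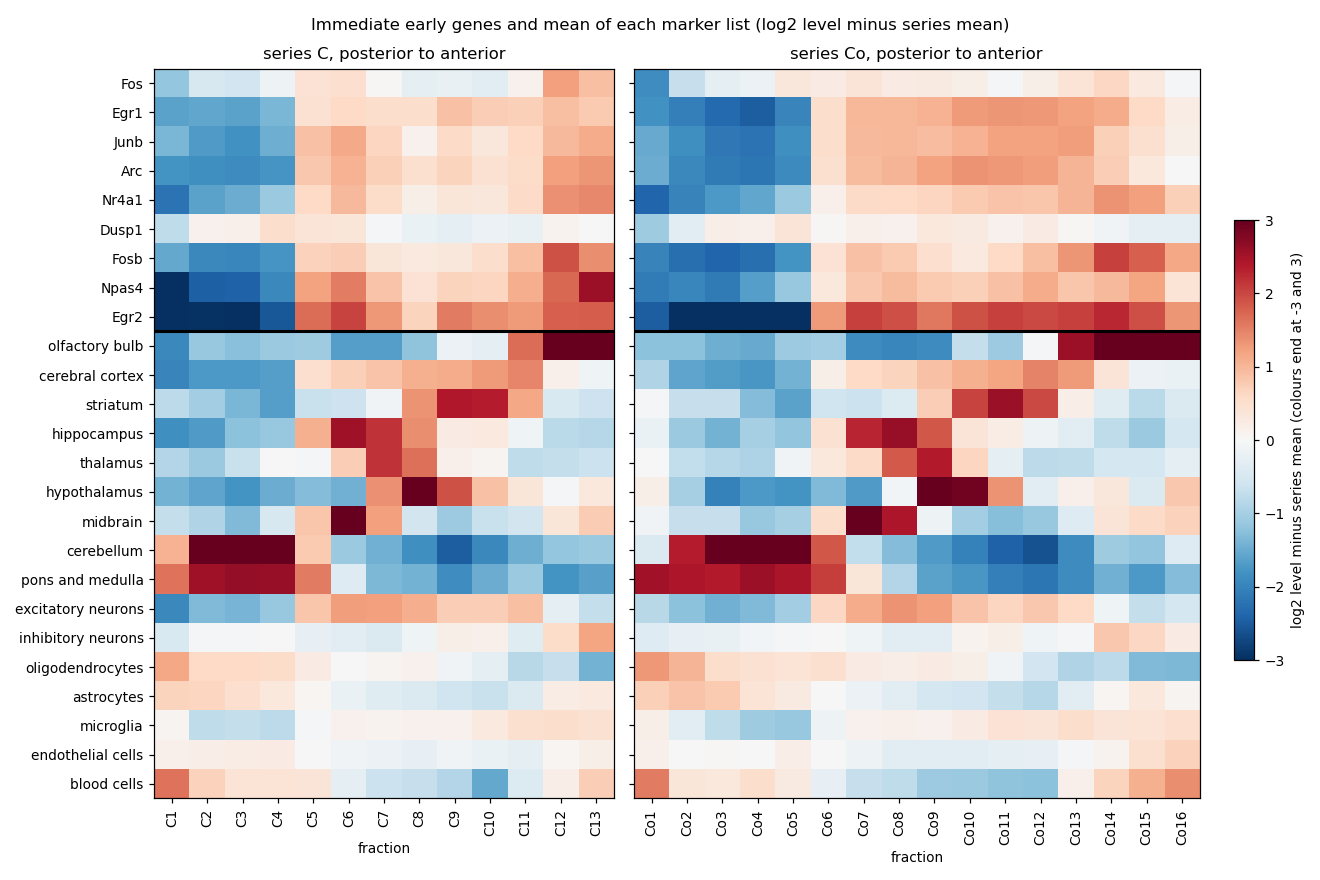
Centered log2 level (color, from −3 to 3, with values beyond shown in the end colors) of the 9 genes above the black line and the mean of each marker list below it, in the fractions of C (left) and Co (right) from posterior to anterior. In C2 to C4 and Co2 to Co5, where Egr1, Junb, Arc, Nr4a1, Fosb, Npas4 and Egr2 are low, the cerebellum and pons and medulla lists are at 2.36 or more, while in Co1, which is low too, the cerebellum list is at −0.44, and the olfactory bulb list is highest in C12 and C13 and in Co14 to Co16.

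The rostral and middle zones were also compared with each other, the latter including fractions with hindbrain markers (the pons and medulla list was at 1.57 in C5 and 2.07 in Co6). Nr4a1 (0.46 ± 0.11, adjusted p = 0.000904) and Fosb (0.73 ± 0.12, adjusted p = 1.27e-05) were higher in the rostral than in the middle zone, and the other 7 did not pass, with values from −0.15 (Dusp1) to 0.45 (Npas4, adjusted p = 0.135). The 2 of 9 members that were higher are about the share of all probes that were (19.7%), and 0 were lower, beside 20.6%. Differences between the genes were not tested. Of the probes called in this contrast, 48.9% were higher, or 61.1% with scaling to the median. With slides as a fixed term, neither gene passed (0.28 for Nr4a1 and 0.62 for Fosb).

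The high values at the anterior end lay in the fractions where the olfactory bulb list was high, and these fractions were again chosen after their values were seen. The pairs c12 and c13 exceeded c5 to c11 by 1.10 in C and 1.29 in Co for Fosb and by 0.90 and 0.65 for Nr4a1, with no overlap in either mouse. Egr2 was 0.39 higher in C and 0.27 higher in Co, with overlap in both. Arc was 0.60 higher in C and 0.55 lower in Co (1.24 and 1.31 in C12 and C13, but 0.75 and 0.31 in Co14 and Co15), and Fos was 1.03 higher in C and 0.25 higher in Co. Npas4 was 1.23 higher in C, without overlap, and 0.28 higher in Co. Egr1, Junb and Dusp1 were, like Arc, higher there in C (by 0.20, 0.43 and 0.08) and not in Co (−0.21, −0.38 and −0.38). C12 lay on the slide of C9 to C11, and on that slide all 9 genes were above the mean of those 3 fractions, by 0.11 (Egr1) to 1.38 (Fos), a count not made over all probes. Inhibitory neuron genes were also higher there, with a mean of 0.54 in C12 and 1.17 in C13 against 0.14 in C10, and 2 of 3 were higher in the rostral than in the middle zone. Whether this change in cell types bears on the levels was not tested.

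In C there was also a crest behind these fractions, which was the highest value of the series for Egr2 and Junb. Egr2, Npas4, Junb, Arc, Nr4a1 and Fosb were at 2.02, 1.53, 1.13, 1.03, 0.97 and 0.75 in C6 and at 0.66, 0.42, 0.13, 0.48, 0.17 and 0.30 in C8. C6 was the fraction of C in which the list of hippocampal genes was highest (2.54). In Co the same 6 genes were at 1.94, 0.94, 1.01, 1.01, 0.60 and 0.79 in Co8, where the hippocampal list was highest (2.61), and no common trough followed, with Egr2 at 1.59, Arc at 1.21 and Nr4a1 at 0.65 in Co9.

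Along the horizontal series all 9 genes were highest in the most dorsal fraction and lower toward the base of the brain, in both mice. Arc was at 1.51, 0.88, 0.01, −0.56, −1.17 and −0.67 in H1 to H6, and at 1.64, 0.89, 0.10, −0.18, −0.43, −0.90 and −1.12 in Ho1 to Ho7. Egr2 was at 1.95 and 0.53 in H1 and H2 and between −0.90 and −0.40 below them, and at 1.86 in Ho1 and 0.44 in Ho2, falling to −0.98 in Ho7. Dusp1, which had no step along the coronal axis, was at 1.01 and 0.37 in H1 and H2 and between −0.51 and −0.20 below, and it fell from 0.61 in Ho1 to −0.47 in Ho6.

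The 2 dorsal pairs (h1 and h2) were above the 2 ventral pairs (h5 and h6) for 9 of 9 genes, beside 12.1% of all probes that were higher and 14.9% that were lower. The difference was 1.81 ± 0.26 for Arc (adjusted p = 7.72e-06), 1.55 ± 0.34 for Egr2, 1.31 ± 0.35 for Npas4, 1.27 ± 0.24 for Egr1, 1.14 ± 0.16 for Nr4a1, 0.95 ± 0.18 for Fos, 0.92 ± 0.21 for Junb, 0.90 ± 0.14 for Dusp1 and 0.68 ± 0.18 for Fosb. The fractions of the zones did not overlap for any gene in H or in Ho, and the difference was larger in H than in Ho for each of the 9. Overlap of zones was counted for the members only, here and in the other planes, so that no share of all probes stands beside it. The dorsal zone holds the topmost slab in H but not in Ho, as Ho1, the highest fraction of Ho for every gene, has no partner. The median was 1.14 over the members and 0.01 over all probes. Of the probes called, 44.8% were higher dorsally, or 61.2% with scaling to the median.

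H1 and H2 lay on another slide than H3 to H6. With slides as a fixed term the difference remained above 0 for all 9 genes, from 0.33 (Fosb) to 1.64 (Arc), but only 1 of them, Arc, still passed (adjusted p = 0.0486). Of all probes called in that fit, 41.95% were higher dorsally. Within slides, the upper fractions that were compared lay above the lower ones. Only the members were compared in this way, without a share of all probes. H3 exceeded H5 and H6 by a median of 0.38 over the genes (9 of 9 above 0). For Fosb and Junb that difference was 0.03 and 0.04. Below H3 the fall was not steady for every gene. Junb was at −0.51 in H4 and −0.30 in H6, and Arc at −1.17 in H5 and −0.67 in H6. Fos, Fosb and Npas4 were lowest in H6. Ho1 and Ho2 exceeded Ho4 by a median of 1.01 (9 of 9), and Ho5 exceeded Ho6 and Ho7 by 0.40 (9 of 9). In the test of any variation along the horizontal fractions 9 of 9 genes passed, beside 28.2% of all probes. Without H1, 3 did (Arc, Nr4a1 and Dusp1), while the dorsal minus ventral difference passed for all 9 without it. Npas4 was close to the threshold in the former test (adjusted p = 0.0439).

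The cerebral cortex list went from 0.96 in H1 to −0.56 in H6 and from 0.96 in Ho1 to −0.55 in Ho7, and 8 of its 8 genes were higher dorsally (median 0.95). All 5 cerebellar genes tested were higher dorsally as well (median 2.11), with the list at 1.28 in H2, 1.22 in H3 and 1.19 in Ho3 but at 0.15 in H1 and −2.27 in Ho1, the fractions in which the members were highest. The oligodendrocyte list ran the other way, from −1.67 in H1 to 0.32 in H6, with 5 of 5 genes lower dorsally, and so did the striatal list, with 6 of 7 lower. The part of these changes in the levels of the members was not tested.

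**Figure D3:**
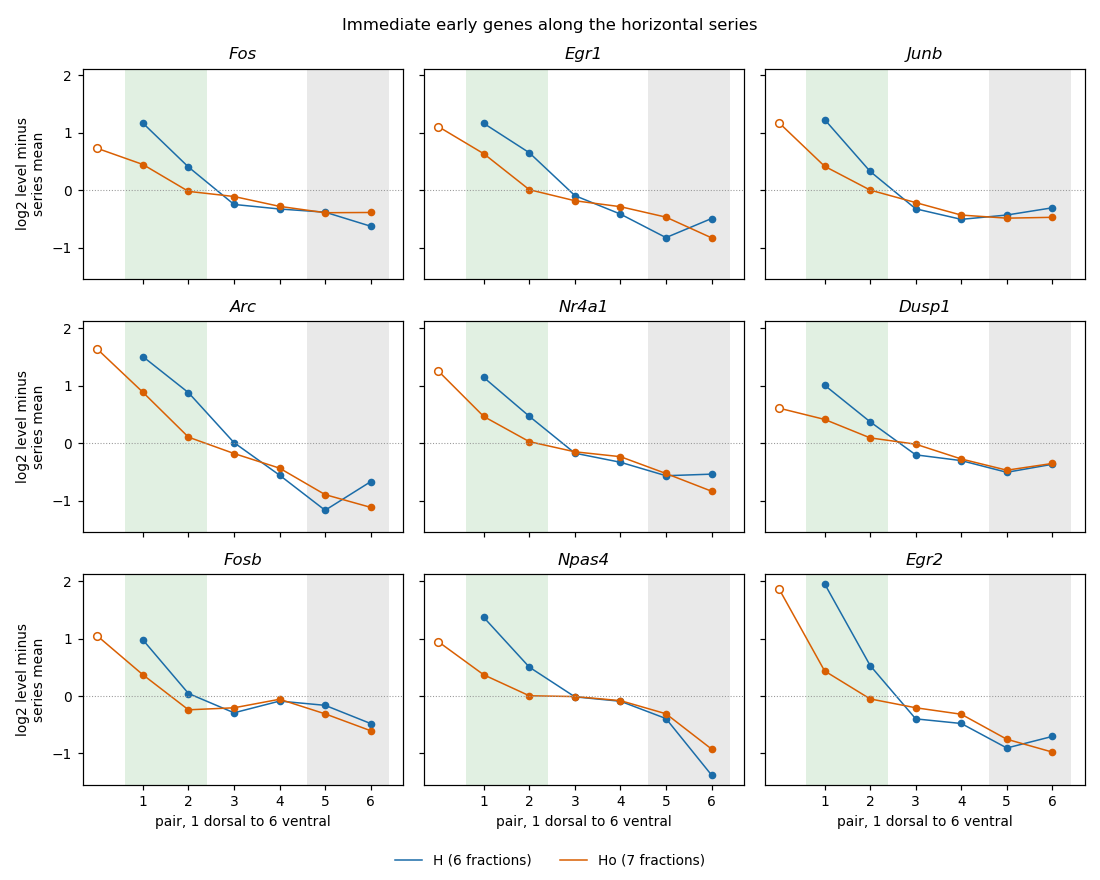
Centered log2 level (vertical axis, log2 units) of each gene against the pair of fractions (horizontal axis, 1 dorsal to 6 ventral) in the horizontal mice H (blue) and Ho (orange). Green shading marks the dorsal and gray the ventral zone, and the open circle is Ho1, which has no partner. Each gene is highest at the dorsal end of both mice, at 0.98 (Fosb) or more in H1.

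Along the sagittal series the layout was shallower. Over the 9 genes, the span from the lowest to the highest fraction had a median of 1.02 in S and 1.25 in So, compared with 3.21 in C and 3.52 in Co. In S both sides were high: Arc was at 0.25, 0.31 and 0.12 in S1 to S3, −0.35, −0.54 and −0.66 in S4 to S6, and −0.09, 0.34 and 0.61 in S7 to S9. Junb was at 0.51 in S1 and 0.55 in S9, with −0.55 in S4 and −0.47 in S6. In So the left end alone was high. Arc was at 0.61, 0.91 and 0.23 in So1 to So3 and between −0.53 and −0.08 in So4 to So10, and Junb was at 0.76 and 0.59 in So1 and So2 and close to its mean in So9 and So10. In So8, 7 of the 9 genes had their lowest value of the series, from −0.21 (Dusp1) to −0.82 (Npas4), and Arc and Egr1 had theirs in So10.

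The outer pairs (s1, s2, s8 and s9) exceeded the inner pairs (s4 to s6) for Junb (0.62 ± 0.16, adjusted p = 0.00384), Arc (0.57 ± 0.20, adjusted p = 0.0306), Nr4a1 (0.43 ± 0.12, adjusted p = 0.00604) and Fosb (0.35 ± 0.13, adjusted p = 0.0417). The other 5 did not pass, among them Egr2 (0.64 ± 0.26, adjusted p = 0.0608) and Egr1 (0.47 ± 0.18, adjusted p = 0.0534), and Fos was at 0.10 ± 0.14. So 4 of 9 members were higher, beside 15.5% of all probes, and 0 were lower, beside 17.6%. This count was 7 with scaling to the median, which added Egr1, Egr2 and Dusp1, and 2 when S4, S5, S6, S8, S9 or So2 was left out. Of all probes called, 46.7% were higher in the outer pairs, or 68.9% with that scaling, under which the median of all probes moved from −0.0044 to 0.10.

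The difference came mainly from S. There, outer and inner fractions did not overlap for 8 genes, with differences of 0.31 (Fos) to 0.99 (Egr2), whereas in So they did not overlap for 2, Junb and Dusp1, and the values ran from −0.11 (Fos) to 0.41 (Junb). How many of all probes were free of overlap in S or in So was not counted. A test of the difference between the mice was not made, as each is 1 animal. On single slides of S, S2 exceeded S4 and S5, and S8 and S9 exceeded S6, for 9 of 9 genes (medians 0.55 and 0.82), and on those of So the corresponding differences were above 0 for 6 of 9 genes each (medians 0.20 and 0.07). Comparisons within slides were made for the members only, without a share of all probes. In the test of any variation along the sagittal fractions 0 of 9 genes passed, whereas 26.6% of all probes did. By this test the lowest adjusted p was 0.112, for Nr4a1. The cerebral cortex list was at 0.86 in S1 and 0.79 in S9, at 0.96 in So1 and at −0.09 in So10, so that it too was high on both sides of S and on the left side of So, and 8 of its 8 genes were higher in the outer pairs. Oligodendrocyte genes were lower in the outer pairs (5 of 5). Their part in the result was not tested.

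**Figure D4:**
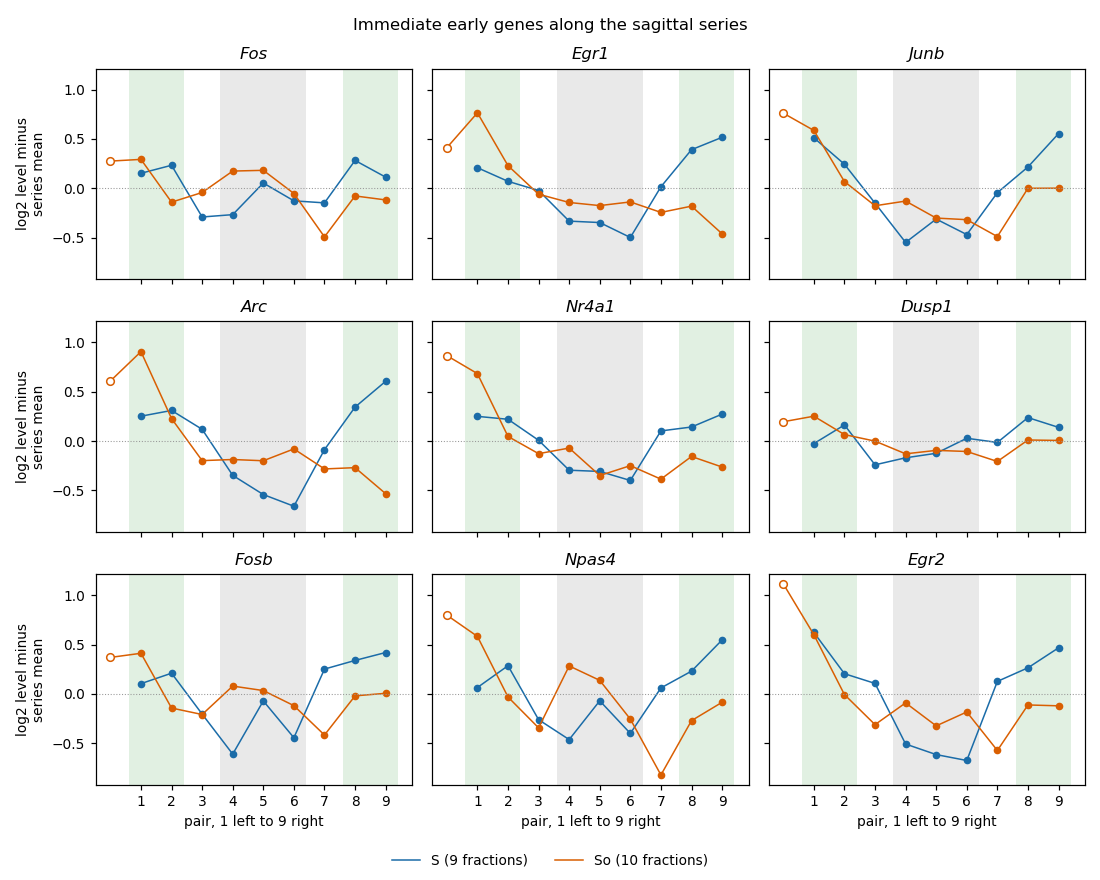
Centered log2 level (vertical axis, log2 units) of each gene against the pair of fractions (horizontal axis, 1 left to 9 right) in the sagittal mice S (blue) and So (orange). Green shading marks the outer and gray the inner zone, and the open circle is So1, which has no partner. Arc, for example, rises on both sides in S, to 0.61 in S9, and only on the left in So, to 0.91 in So2.

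Left and right pairs (s1 to s4 against s6 to s9) did not differ detectably. The estimates ran from −0.05 ± 0.12 (Fosb) to 0.26 ± 0.19 (Arc), and 0 of 9 genes passed in either direction, beside 0.861% of all probes that were higher on the left and 0.692% that were lower. Of the probes called, 55.5% were higher on the left, or 78.6% with scaling to the median. In So alone, the mean of the left pairs lay above that of the right for all 9 genes, by 0.12 (Dusp1) to 0.48 (Npas4), and the sides did not overlap for 1, Nr4a1 (0.40). In S the differences ran from −0.27 (Fosb) to 0.06 (Egr2). Area markers were not balanced between the sides. Of the hypothalamus list 4 of 6 genes and of the midbrain list 2 of 5 were lower on the left, and 0 were higher. None of the 8 cerebral cortex genes passed, but that list was at 0.88 in So2 and −0.09 in So10. The contrast is therefore not one of matched hemispheres, and the part of this imbalance was not tested.

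**Figure D5:**
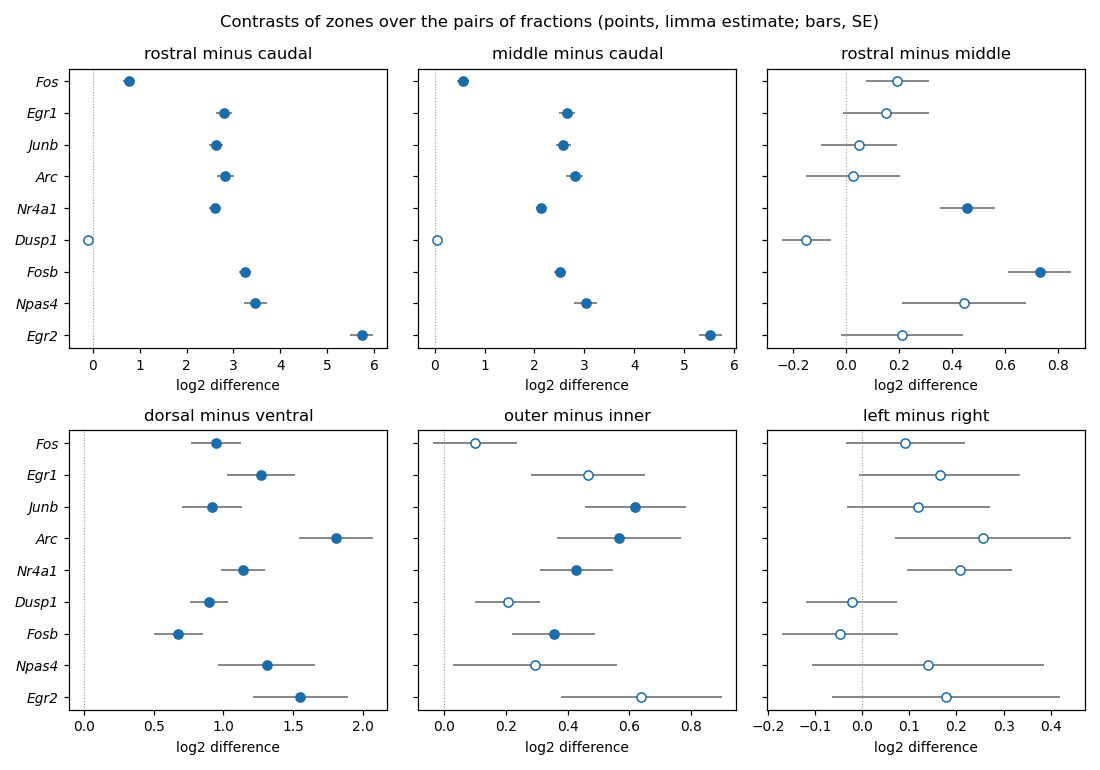
Difference between zones (horizontal axis, log2 units) for each of the 9 genes in the 6 contrasts, with points for the estimate over pairs of fractions of 2 mice and bars for its SE. Filled points passed an adjusted p of 0.05 over all probes and open points did not; the largest value is that of Egr2 for rostral minus caudal (5.73), and the axes differ between panels.

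The 2 mice of a plane were compared gene by gene, as a description over the paired fractions. Pearson's r between C and Co over 13 pairs was 0.99 for Egr1 and Fosb, 0.98 for Egr2, 0.96 for Nr4a1 and 0.85 for Fos, and 0.38 for Dusp1. Between H and Ho, over 6 pairs, it ran from 0.89 (Egr2) to 0.97 (Fos). Between S and So, over 9 pairs, it ran from −0.08 (Fosb) to 0.68 (Junb). The median over 21773 probes well above background was 0.80, 0.69 and 0.45 in these planes. The points of a series share a mouse, neighboring slabs and slides, so that no p-value is given.

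The genes were also compared with each other, over the 61 centered fractions. Among the 7 genes with a coronal step, r lay between 0.88 and 0.98 over their 21 combinations. Fos correlated with these 7 at 0.60 to 0.80 and Dusp1 with the other 8 at 0.21 to 0.74. The r of Dusp1 with the others was 0.08 to 0.64 in the coronal plane, 0.64 to 0.77 in the sagittal plane, where it was 0.73 to 0.98 among the 7 genes, and 0.87 to 0.98 in the horizontal plane. When the caudal fractions were left aside and the coronal fractions from c5 onward were taken alone, r among the 7 genes fell to between −0.03 and 0.91, with a median of 0.59. All these fractions share the composition of their slabs.

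Other genes with the most similar layout were looked for among 11124 genes that were well above background in all fractions. The mean of the 9 members was matched best by Egr4 (r = 0.95), another zinc finger factor of the EGR family, Dusp14 (0.95), a dual specificity phosphatase, and Ankrd33b (0.94). Fosb was nearest to Fosl2 (0.96), also a member of the FOS family, and Dusp1 to Ier2 (0.82), an immediate early gene. Mef2c, a transcription factor of neurons and muscle, was the nearest gene of Junb (0.96) and Arc (0.95), and Lhx2, a LIM homeobox factor of the forebrain, that of Egr2 (0.96). Egr1 was nearest to Ankrd33b (0.96), Nr4a1 to Dusp14 (0.95), Npas4 to Syt1 (0.93), a calcium sensor of synaptic vesicles, and Fos to Zfp704 (0.88). These values describe 61 fractions and say nothing of shared control.

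Among other immediate early genes, 47 of 50 listed were tested. Of these, 30 were higher and 7 lower in the rostral than in the caudal zone, with a median of 0.45 (−0.11 over all probes). The shares of all probes were 24.6% higher and 34.8% lower. The neuronal pentraxin Nptx2 (3.66 ± 0.07), Egr4 (3.26 ± 0.15), Fosl2 (2.11 ± 0.14), the synaptic scaffold Homer1 (2.07 ± 0.11) and the kinase Plk2 (2.01 ± 0.08) rose forward like the 7 members, and Ier3 (−0.80 ± 0.07) and the EGF receptor inhibitor Errfi1 (−0.48 ± 0.04) fell. The lowest value of the list was −1.27. As for Dusp1, no difference was detected for Ier2 (0.0049 ± 0.12, adjusted p = 0.977) and Jun (0.04 ± 0.08, adjusted p = 0.672). In the contrast of the rostral with the middle zone the list was split, with 15 genes higher and 14 lower. Its values ran from −0.58 to 1.65, with a median of 0.11. Among the 15 were Atf3 (1.65 ± 0.16), Inhba (1.54 ± 0.12), Nptx2 (0.76 ± 0.07) and Fosl2 (0.53 ± 0.14). Of all probes, 19.7% were higher and 20.6% lower in this contrast. In the dorsal zone 25 of the 47 were higher and 4 lower, beside 12.1% and 14.9% of all probes. Ier5 (1.49 ± 0.18), Trib1 (1.40 ± 0.16) and Ier2 (1.34 ± 0.17) were at the top of those that were well above background in all fractions. In the outer sagittal zone 20 were higher and 8 lower, beside 15.5% and 17.6% of all probes.

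Of 28 names listed as regulators of these genes, 2 of them older names of listed genes, 23 genes were tested. In the rostral zone 14 were higher than in the caudal zone and 6 lower, with a median of 0.41. Of all probes, 24.6% were higher and 34.8% lower. The kinase Camk2a (3.42 ± 0.16) and the factor Mef2c (3.20 ± 0.14) had the largest values, and the SRF partner Mrtfb (1.22 ± 0.07) and Srf itself (1.06 ± 0.04) were also higher. Creb1 was lower by a smaller amount (−0.26 ± 0.05, adjusted p = 0.000129), and the kinase Rps6ka1 was −2.05 ± 0.10. In the dorsal zone 10 were higher and 2 lower, beside 12.1% and 14.9% of all probes. The 2 lower genes were Mapk3 (−0.75 ± 0.09) and Rps6ka5 (−0.36 ± 0.10), while Mef2c was 1.25 ± 0.20. In the outer sagittal zone 12 were higher and 4 lower, beside 15.5% and 17.6% of all probes, with Mef2c at 1.08 ± 0.15 and Srf at 0.65 ± 0.05.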

How the data were processed

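For 61 arrays the authors deposited spot intensity values from Agilent Feature Extraction 9.1.3.1, background-subtracted by that software and not normalized between arrays, with flags (0 or 1) for outliers, saturation and signals well above background. They also deposited a table of intensities normalized per array in GeneSpring GX, of which 0 value columns were unused. The files name array design 014868, which differs from the number in the methods. Here, log2 values of the deposited intensity were averaged over the spots of a probe, leaving out spots flagged as outliers, and reduced by the 75th percentile of 41174 non-control probes. Of 36573 probes well above background on at least 1 array, 35984 without a lost value were tested.

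The fit (limma 3.58.1 in R 4.3.3) used the 56 arrays of 28 pairs, with the mouse as a block, which centers each series. It had 25 residual and 1.53 prior degrees of freedom, and adjusted p-values below 0.05 were called. The labels number the fractions of S from 2, and here they count from 1. Each series is 1 mouse by the labels. The median r of the deviations from pair means was 0.28 in 129 combinations of pairs within a plane and −0.03 in 249 between planes. Partners of a pair deviate by equal and opposite amounts, and neighboring fractions share slides. These values therefore cannot check that a series is 1 mouse. The script was tested on simulated data. RefSeq accessions named 22951 probes. Python 3.11.15, numpy 2.4.6, pandas 2.3.3 and matplotlib 3.10.9 served for summaries and plots. The genes named are the 9 members, the genes of the lists and the 3 nearest genes of each profile. The members and lists were chosen with earlier results of these data known. Alternatives were other scalings, the authors' table, normexp (offset 50, on median signals) with quantile normalization, other filters, a floor of 5, other pairing, slide blocks, single planes, the other Junb probe, no block and leaving out each array.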

Additional observations from a re-analysis of the deposited data

Results flagged for a closer look

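Fosb in H1, the most dorsal fraction of H, lay 0.98 above the mean of its series on the log2 scale. The gap to the next fraction (H2, 0.04) was 0.64 of the range of the 6 fractions. It was the only such value among 36 combinations of gene and series of 6 to 10 fractions, and chance alone flags about 1 in 20. The fractions of a series are different slabs and not replicates, and in Ho the most dorsal fraction was also the highest for Fosb (1.05).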

How the results depend on the processing

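Of the 9 members, 8 were higher in the rostral than in the caudal zone and 9 varied over all planes, and no member that passed a test changed direction under any alternative run. Leaving out 1 array at a time, the count was 8 throughout for rostral and for middle against caudal, 2 to 3 for rostral against middle, 9 for dorsal against ventral, 2 to 6 for outer against inner, 8 to 9 for variation along the coronal fractions, 3 to 9 along the horizontal fractions and 0 along the sagittal fractions. Without the mouse as a block, so that each series was not centered and the pairing alone remained, 2 members varied along the horizontal fractions, 7 along the coronal fractions and 7 over all planes, 0 were higher rostrally than in the middle, 7 were higher in the middle than caudally, 6 were higher dorsally and 1 was higher in the outer zone. Without the block, the test over all planes also compared pairs of different planes, so that it was not the same test as the main one. Fos did not pass it (adjusted p = 0.171) and was among those lost for dorsal against ventral (0.0961). Scaling to the median, and likewise the table normalized by the authors, gave 2 members varying along the sagittal fractions and 7 higher in the outer zone. Pairing fractions by their own position gave 4 along the horizontal fractions and 0 for outer against inner. Slides as a fixed term left 2 members that varied along the horizontal fractions, 0 that were higher rostrally than in the middle and 1 that was higher dorsally; the sagittal contrasts and the test over all planes could not be estimated, since slide boundaries of S and So fall between the same pairs. The sagittal plane alone gave 0 members varying, and the other Junb probe 1 along the sagittal fractions. Without S1, scanned on another day, 5 members were higher in the outer zone, and without C13 the counts were as given. The cause of these changes was not tested. The count of probes that varied over all planes was 13705 with pairing by position, against 22994.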
